A study of Mus musculus with 18 samples.

Results

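Spleens of Dp16_2xIFNRs mice were compared with spleens of WT mice, 6 animals of each genotype. These 12 samples, of 18 in the series, were chosen by the genotype in their labels, and each group held 3 males and 3 females. The other 6 samples are Dp16 mice, also 3 males and 3 females, which entered the fit and are shown beside the results. WT mice are labelled wild-type C57BL/6J. Dp16 mice carry a segmental duplication of mouse chromosome 16, so that the genes between Lipi and Zbtb21 are present in 3 copies in place of 2. Dp16_2xIFNRs mice carry the same duplication with the dosage of the interferon receptor genes normalised, which the name gives as 2 copies. The labels do not say how the receptor copies were removed, name no strain for the Dp16 lines and list no treatment for any group. The series title calls the mice adult, and the age label ran from 17.1 to 18.0 in WT, from 17.7 to 18.0 in Dp16_2xIFNRs and from 17.1 to 18.0 in Dp16, under a tag of days post conception, whose unit is not interpreted here. Poly(A) RNA was sequenced from whole spleen, so every value is an average over all cells of the organ.

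The duplicated interval is the mouse counterpart of much of the human chromosome that is trisomic in Down syndrome. Within the interval lie 4 cytokine receptor genes. Type I interferons signal through a receptor built of IFNAR1 and IFNAR2, interferon gamma through IFNGR1 and IFNGR2, and IL10RB is shared by the receptors of interleukin 10 and type III interferons. All of them act through JAK kinases and STAT factors, which switch on interferon-stimulated genes through a promoter element called the ISRE. The adult mouse spleen filters blood, houses B and T cells in its white pulp, and in its red pulp can make red cells, platelets and granulocytes. The comparison with WT asks what the extra interval does to the spleen when its receptor genes are back at 2 copies. Since a strain is named for WT only, a difference of strain background cannot be told apart from the interval.

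Total counts ran from 36875189 to 46991153 per library in WT and from 40607834 to 53021480 in Dp16_2xIFNRs, and sex-linked transcripts matched the sex label in 12 of 12 libraries. Counts were scaled to CPM, the read count of a gene for a library brought to a common size, with edgeR's TMM factors, and values are given as mean ± SD (n = 6) or as the lowest, median and highest library of a group. Calls are genes whose Benjamini-Hochberg adjusted p was under 0.05 in edgeR's quasi-likelihood test. A log2 fold change is Dp16_2xIFNRs over WT with its standard error (SE). Of 18634 genes tested, 5860 were called (31.4%), 3217 higher (17.3%) and 2643 lower (14.2%). This split depends on the scaling: 54.9% of the calls were higher, against 43.7% with upper quartile scaling, 36.3% with scaling to library totals and 36.9% with limma-trend on RPKM. Over all genes the median change was -0.01 with TMM, and -0.07, -0.12 and -0.12 with those scalings. Changes past 2-fold were mostly increases, 799 against 142 decreases. Counts within a gene list are therefore read against 17.3% and 14.2% with TMM. Under other scalings the shares of all genes differ. Of 18634 genes, 2677 were higher and 3451 lower with upper quartile scaling, and 2270 and 3975 with library totals. Limma-trend on RPKM gave 2317 and 3958. Gm42418, annotated as a noncoding RNA, took 0.846% to 5.51% of counts in WT and 0.691% to 4.40% in Dp16_2xIFNRs, and alternatives left out the libraries rich in it. The sample descriptions carry a code shared by some libraries of different genotypes, whose meaning is not stated, and 1 alternative used it as a block in place of sex. Most codes occur in a single library, which then adds nothing to the comparison of genotypes. A call lost with this block may therefore reflect fewer usable libraries.

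In the receptor-normalised spleen no receptor gene was called higher than in WT, and 1 of 4 was called lower. Ifnar2 (chromosome 16, 91372783 to 91405589 on GRCm38, plus strand), which encodes the ligand-binding chain of the type I receptor, was at 82.9, 88.8 and 91.1 CPM (lowest, median, highest) in WT and at 88.3, 92.4 and 102 CPM in Dp16_2xIFNRs. The groups overlapped, and the log2 fold change was 0.09 ± 0.06 SE (adjusted p = 0.276). Il10rb (91406164 to 91425834) was at 79.1 ± 3.96 CPM in WT and 75.1 ± 5.71 CPM in Dp16_2xIFNRs, a log2 fold change of -0.07 ± 0.07 SE (adjusted p = 0.442). Levels of Ifnar1 (91485238 to 91507441), whose product pairs with IFNAR2, were 87.3 ± 7.77 and 77.7 ± 7.54 CPM, with a log2 fold change of -0.17 ± 0.08 SE (adjusted p = 0.106). That gene passed the threshold as lower under upper quartile scaling, library totals, a library order term and limma-trend on RPKM, and without WT replicate 6 or Dp16_2xIFNRs replicate 2. Ifngr2 (91547072 to 91565623), which encodes the chain that starts signalling by interferon gamma, had levels of 81.1, 94.0 and 100.1 CPM in WT and at 65.5, 78.1 and 88.3 CPM in Dp16_2xIFNRs. It was the 1 receptor gene called, as lower by 0.27 on the log2 scale (log2 fold change -0.27 ± 0.08 SE, adjusted p = 0.0147), and the call was lost with the description code as a block (adjusted p = 0.0918). On a scale that also divides by gene length (RPKM), the median level in WT was highest for Il10rb, followed by Ifnar2 at 29.0, Ifngr2 at 27.1 and Ifnar1 at 23.2.

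**Figure D1:**
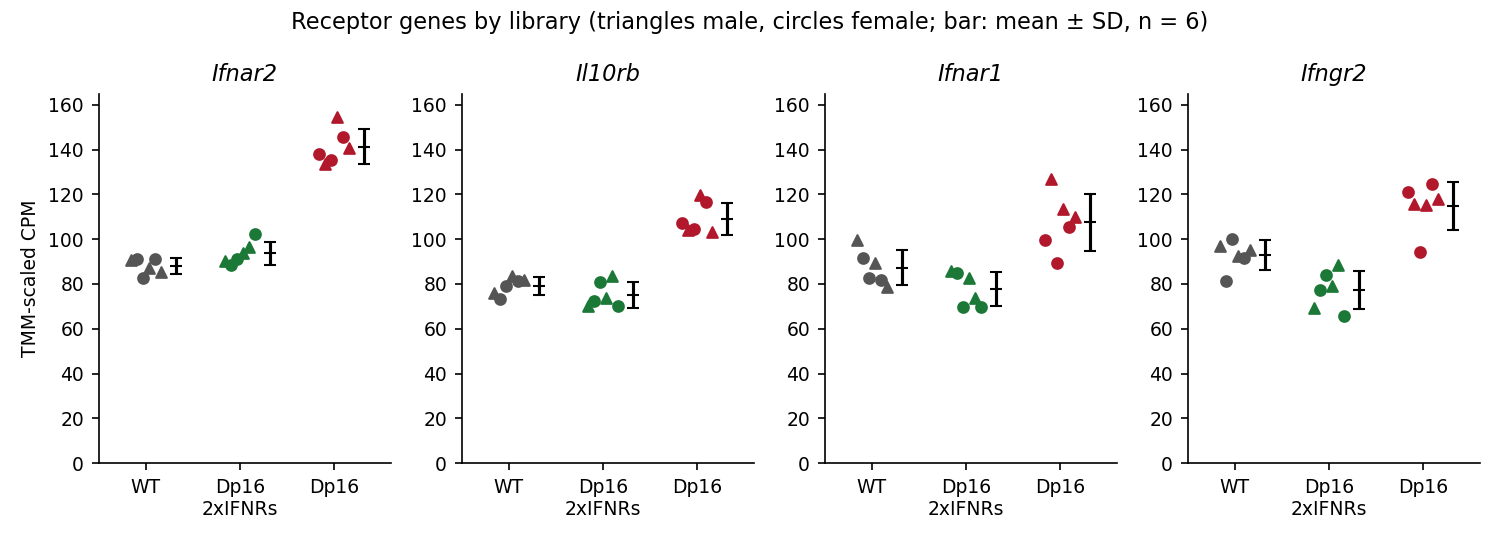
Each panel plots TMM-scaled CPM of 1 receptor gene in the 6 libraries of WT, Dp16_2xIFNRs and Dp16, with triangles for males, circles for females and a bar for the mean ± SD (n = 6). The WT and Dp16_2xIFNRs points overlap in all panels, while in all panels every Dp16 library lies above every Dp16_2xIFNRs library.

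Against Dp16, which has 3 copies of the receptors, the 4 receptor genes were the 4 genes called in the whole table (0.0215% of 18634), all as lower in Dp16_2xIFNRs. Their log2 fold changes over Dp16 were -0.59 ± 0.06 SE for Ifnar2 (adjusted p = 3.67e-05), -0.57 ± 0.08 for Ifngr2 (0.00339), -0.54 ± 0.07 for Il10rb (0.000498) and -0.46 ± 0.08 for Ifnar1 (0.0278). No gene was called higher, with 248 higher and 190 lower at an unadjusted p below 0.05, and DESeq2 and limma voom each called 4 genes. With the description code as a block in place of sex 0 genes were called, while the 4 receptor changes ran from -0.57 (Ifngr2) to -0.43 (Ifnar1). The Ifnar1 call was lost under several settings, and without WT replicate 5 (adjusted p = 0.0511) or Dp16_2xIFNRs replicate 3 (0.140), 4 (0.0981), 5 (0.132) or 6 (0.120).

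Genes on both sides of the receptor cluster were higher than in WT. On the proximal side Paxbp1 changed by 0.45 ± 0.10 SE (adjusted p = 0.00163) and Synj1, a phosphoinositide phosphatase gene, by 0.55 ± 0.10 (adjusted p = 0.000486). On the distal side Tmem50b was at 40.9 ± 3.91 CPM in WT and 59.5 ± 6.61 CPM in Dp16_2xIFNRs (log2 fold change 0.54 ± 0.09 SE, adjusted p = 0.000138). Further along, Gart, a purine synthesis enzyme gene, changed by 0.80 ± 0.06 SE (adjusted p = 6.93e-08) and Son, a splicing factor gene, by 0.24 ± 0.07 (adjusted p = 0.0154). The long noncoding A930006K02Rik, within the cluster, was at 3.34 ± 0.797 CPM in WT and 3.64 ± 0.817 CPM in Dp16_2xIFNRs (log2 fold change 0.13 ± 0.20 SE, adjusted p = 0.686). In Dp16 it was at 6.53 ± 1.56 CPM, and its log2 fold change over Dp16 was -0.84 ± 0.20 SE, not called. The labels do not give its copy number, and it is counted with the interval genes below.

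Away from the receptors, the typical interval gene rose with TMM by close to its copy number ratio. The interval runs from 75540514 to 97962622 on chromosome 16 (22.42 Mb), and the deposited table holds 384 genes there. Of these, 191 had no count in any of the 12 libraries, 113 passed the filter on low counts, and 109 remain without the receptors. Across the 109 genes the middle value of the log2 fold change was 0.55. That is a fold of 1.46, beside a copy ratio of 1.5 (log2 0.585). The median was lower with upper quartile scaling (0.48), library totals (0.44) and limma-trend on RPKM (0.40). It was also lower without a filter (0.42) and with a filter at 1 CPM in 6 libraries (0.49). Of the 109, 55 (50.46%) were called higher and 0 lower, against 17.3% and 14.2% of all genes. In 38 of the 109 every Dp16_2xIFNRs library was above every WT library, against 6.83% of all genes tested. The 461 tested genes on the proximal side of the same chromosome included 80 called higher and 82 called lower, and their median change was -0.01. The interval took 0.398% to 0.442% of all counts in WT libraries and 0.541% to 0.595% in Dp16_2xIFNRs libraries, with no overlap.

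**Figure D2:**
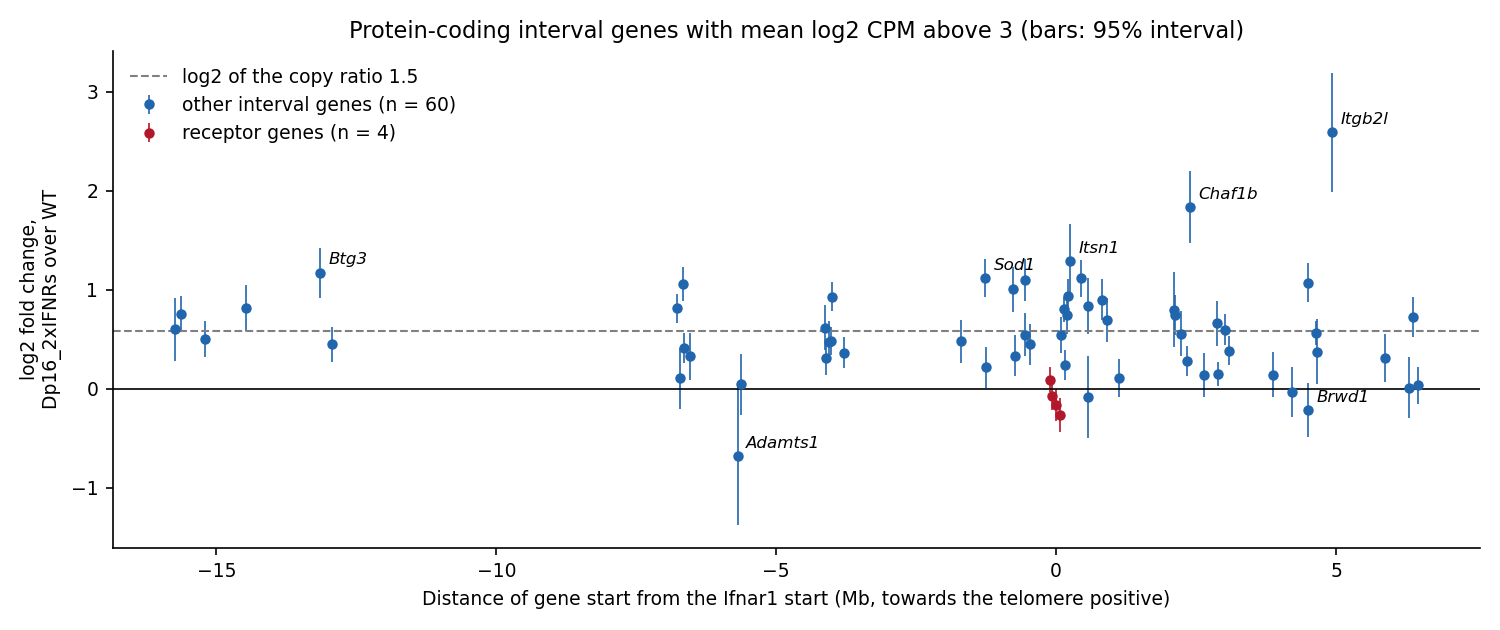
The plot shows the log2 fold change of Dp16_2xIFNRs over WT with its 95% interval for the 4 receptor genes and for the 60 other protein-coding genes of the interval whose mean log2 CPM exceeded 3, against the distance of the gene start from the Ifnar1 start in Mb. The receptor genes lie between -0.27 and 0.09, most other genes lie above 0 and spread on both sides of the dashed line of the copy ratio 1.5, and Itgb2l and Chaf1b lie far above that line.

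The interval genes differed widely among themselves. Among those 60 protein-coding genes, with a mean log2 CPM over 3 and the receptors left out, the median log2 fold change was 0.54, the quartiles were 0.30 and 0.81, 46 were called higher and 4 had a negative value. The 95% interval of the change lay above the copy ratio for 16 genes, below it for 22 and across it for 22. Itgb2l, a leukocyte integrin subunit gene, changed most: it was at 1.61, 2.68 and 8.54 CPM in WT and at 16.4, 20.8 and 24.9 CPM in Dp16_2xIFNRs, without overlap (log2 fold change 2.59 ± 0.28 SE, adjusted p = 1.54e-05). Chaf1b, a subunit of the chromatin assembly factor that deposits histones behind replication forks, was at 14.3, 19.9 and 32.9 CPM in WT and at 56.3, 66.5 and 112 CPM in Dp16_2xIFNRs (1.84 ± 0.17 SE, adjusted p = 3.7e-06). Both moved beside granulocyte and cell division genes described further on, whose part in these values was not tested. Itsn1, an endocytic scaffold gene, followed at 1.29 ± 0.18 SE and the antiproliferative gene Btg3 at 1.17 ± 0.12 SE. At the other end Adamts1, a secreted protease gene, was at 17.7 ± 8.36 CPM in WT and 11.0 ± 3.16 CPM in Dp16_2xIFNRs (-0.68 ± 0.33 SE, adjusted p = 0.131). The chromatin reader gene Brwd1 (-0.22 ± 0.13 SE, adjusted p = 0.227), the inositol transporter gene Slc5a3 (-0.09), the transcription factor gene Ets2 (-0.04) and Prdm15 (0.01) were not called.

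The medians also varied with the role of the genes, without a test between roles. Of 13 tested metabolic and mitochondrial genes, 10 were called higher, with a median log2 fold change of 0.77. Sod1, the cytosolic superoxide dismutase that removes superoxide, was at 281, 302 and 348 CPM in WT and at 542, 647 and 836 CPM in Dp16_2xIFNRs, without overlap (1.12 ± 0.09 SE, adjusted p = 1.17e-07). The ATP synthase subunit genes Atp5o (1.11 ± 0.09 SE) and Atp5j (1.06 ± 0.08), and the carbonyl reductase genes Cbr3 (0.77) and Cbr1 (0.74), were called with it. All 6 ubiquitin and proteostasis genes were called higher (median 0.65), among them the chaperonin subunit Cct8, (0.93 ± 0.07 SE), the proteasome assembly chaperone Psmg1 (1.07) and the deubiquitinase Usp25 (0.82).

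Of 10 chromatin and chromosome genes, 8 were called higher (median 0.45), such as Mis18a, needed to load the centromeric histone (1.01 ± 0.11 SE), Donson, a replication factor (0.74), and the nucleosome-binding gene Hmgn1, which was at 188 ± 11.1 CPM in WT and 277 ± 20.3 CPM in Dp16_2xIFNRs (0.56 ± 0.06 SE). Of 16 signalling and trafficking genes, 11 were called higher (median 0.51). Among them were the kinase gene Dyrk1a (0.39 ± 0.07 SE, adjusted p = 0.000378, with the 95% interval below the copy ratio), the calcineurin inhibitor gene Rcan1 (0.70 ± 0.11) and the amyloid precursor gene App (0.33 ± 0.11). Of 10 transcription regulators, 4 were called higher (median 0.25): the haem-sensing repressor gene Bach1 (0.36 ± 0.08 SE), Gabpa (0.41 ± 0.07), the nuclear receptor corepressor Nrip1 (0.50 ± 0.09) and Ripply3 (1.05 ± 0.19). The blood cell transcription factor genes Runx1 (0.11 ± 0.09, adjusted p = 0.439) and Erg (0.14 ± 0.11, adjusted p = 0.365) were not called, and their 95% intervals lay below the copy ratio. Of 7 tested membrane channel and adhesion genes, 3 were called higher (median 0.04). The antiviral effector genes Mx1 and Mx2, interferon-stimulated genes that themselves lie in the interval (both are annotated as polymorphic pseudogenes), were called higher at 0.39 ± 0.10 and 0.73 ± 0.15 SE.

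Granule genes of neutrophils were higher outside the interval. Leaving out predicted genes and immune receptor segments, the 8 largest called increases among protein-coding genes with a mean log2 CPM above 3 were Mcpt8, Prss34, Apol11a, Apol11b, Ms4a3, Prtn3, Ctsg and Camp, with log2 fold changes from 3.70 to 2.72. Azurophil granules are the first granules of a maturing neutrophil and hold its serine proteases and myeloperoxidase, and specific granules follow later. Of 9 azurophil granule genes, 7 were called higher and 0 lower (median 2.39), and in these 7 the groups did not overlap. All 13 specific granule genes were called higher (median 2.34), again without overlap, against 6.83% of all genes tested. Mpo, the myeloperoxidase gene (chromosome 11, 87793581 to 87804413), was at 17.6, 49.6 and 129 CPM in WT and at 191, 272 and 401 CPM in Dp16_2xIFNRs (2.39 ± 0.29 SE, adjusted p = 4.88e-05). Elane, neutrophil elastase, was at 9.77, 23.2 and 54.7 CPM in WT and at 107, 139 and 188 CPM in Dp16_2xIFNRs (2.53 ± 0.23 SE, adjusted p = 5.25e-06). S100a8, a calprotectin subunit, rose from 189 ± 103 to 888 ± 191 CPM (2.33 ± 0.22 SE), Ltf, lactoferrin, from 105 ± 77.0 to 454 ± 112 CPM (2.33 ± 0.26 SE) and Camp, cathelicidin, from 67.4 ± 45.8 to 382 ± 94.3 CPM (2.72 ± 0.26 SE). In a tissue measurement such as this, more or fewer cells of a type and more or less RNA per cell cannot be told apart.

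Receptor genes of mature neutrophils were divided. Of 12 mature neutrophil genes, 7 were called higher and 1 lower (median 0.87), with Fpr2, a formyl peptide receptor, at 1.61 ± 0.19 SE. Csf3r, the receptor of the granulocyte growth factor, was at 35.1, 49.2 and 60.1 CPM in WT and at 43.1, 52.0 and 71.0 CPM in Dp16_2xIFNRs (0.14 ± 0.15 SE, adjusted p = 0.528). Cxcr2 stood at -0.24 and was not called. The summed level of the 12 genes, in CPM of library totals, was 939 to 1225 in WT and 882 to 1201 in Dp16_2xIFNRs, whereas that of the 13 specific granule genes was 491 to 2067 and 3573 to 5786. Among the WT libraries the 3 females were above the 3 males for both Mpo and Elane.

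Several basophil and eosinophil genes were also higher. Of 12 basophil and mast cell genes, 7 were called higher and 0 lower (median 1.29). Prss34, a basophil protease, was at 1.09, 2.56 and 6.40 CPM in WT and at 18.0, 34.1 and 57.3 CPM in Dp16_2xIFNRs, a fold of 11.2 without overlap (3.49 ± 0.39 SE, adjusted p = 3.3e-05). Mcpt8, a basophil granzyme, had a fold of 13.0 (3.70 ± 0.44 SE, adjusted p = 4.72e-05), and Fcer1a, the IgE-binding receptor chain, was at 3.19. The mast cell protease genes Mcpt4 (0.81), Tpsb2 (1.16) and Cma1 (-0.30) were not called. Of 8 eosinophil genes, 5 were called higher and 1 lower (median 1.12), with the ribonuclease gene Ear2 at 0.82 ± 0.09 SE and Epx, eosinophil peroxidase, at 2.17. Il5ra, the interleukin 5 receptor chain that B cells also express, was lower (-1.15 ± 0.19 SE, adjusted p = 0.000144). With the description code as a block 2 of the 8 genes were called higher. Reads of near-identical copies, as among the Ear genes, Apol11a and Apol11b, or Hba-a1 and Hba-a2, may have been split between them in the counting.

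Red cell genes were higher. All 30 tested erythroid genes were called higher, with a median log2 fold change of 1.71 and no overlap between groups in 16 of them. All 12 haem synthesis genes were called higher (median 1.59, no overlap in 5). Of all genes tested, 6.83% were higher without overlap. Gata1, the master transcription factor of red cells and platelets, was at 17.3, 46.4 and 90.7 CPM in WT and at 100.3, 143 and 180.4 CPM in Dp16_2xIFNRs (1.73 ± 0.30 SE, adjusted p = 0.000606). Klf1, which switches on adult globin, was at 18.9, 70.4 and 159.6 CPM in WT and at 173, 216 and 341 CPM in Dp16_2xIFNRs (1.87 ± 0.39 SE, adjusted p = 0.00200). The highest WT library in both genes was replicate 2, and it still lay below every Dp16_2xIFNRs library. Epor, the erythropoietin receptor (1.56 ± 0.29 SE), and Tfrc, the transferrin receptor through which red cell precursors take up iron (1.67 ± 0.37 SE), were called as well, the latter with overlapping groups. Alas2, the erythroid enzyme that starts haem synthesis, rose from 332 ± 157 to 951 ± 292 CPM (1.54 ± 0.28 SE, adjusted p = 0.000856) and Hbb-bs, an adult beta globin, from 4686 ± 1869 to 13729 ± 3579 CPM (1.56 ± 0.25 SE, adjusted p = 0.000313). The 4 adult globin genes together took 0.543% to 1.66% of counts in WT and 1.64% to 3.45% in Dp16_2xIFNRs, which overlap at the ends.

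Promoters of the erythroid genes were searched for the element of Gata1's product, since these genes rose together. The letters AGATAA, or TTATCT on the other strand, are a common form of the element that GATA1 binds. They were found in the 250 bases before the start in 9.99% of 32851 RefSeq promoters (GRCm38.p6), in 8 of 24 promoters of the erythroid genes (33.33%; 20 of 30 genes matched by symbol), in 2 of 12 promoters of haem synthesis genes, in 3 of 14 of platelet genes and in 0 of 21 of B cell genes. These shares are descriptions and show no binding. For Gata1, Klf1 and Tfrc, which also rose, the search returned no match. That is also the outcome for a gene with no promoter under its symbol, so it does not show that the letters are absent. The stretches around the match in 3 genes that rose are shown 5′ to 3′ on the strand of the gene, with the matching letters in capitals, for Epor (chr9:21963595-21963660, minus strand), Alas2 (chrX:150547301-150547366, plus strand) and Hbb-bs (chr7:103828103-103828168, minus strand).
Epor: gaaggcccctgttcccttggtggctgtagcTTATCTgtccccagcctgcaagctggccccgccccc
Alas2: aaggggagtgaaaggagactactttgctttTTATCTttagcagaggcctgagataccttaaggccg
Hbb-bs: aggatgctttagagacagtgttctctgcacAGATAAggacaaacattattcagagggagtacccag

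Megakaryocyte and platelet genes rose with the red cell genes. All 18 were called higher (median 1.13), with no overlap in 7, against 6.83% of all genes tested. Pf4, a platelet chemokine, rose from 27.7 ± 8.32 to 72.9 ± 13.4 CPM without overlap (1.42 ± 0.20 SE, adjusted p = 0.000114). Clec1b, a platelet activation receptor, changed by 0.75 ± 0.09 SE and Gp9, a von Willebrand factor receptor subunit, by 1.29 ± 0.17 SE. Of 11 tested genes of stem and progenitor cells, 0 were called higher and 4 lower (median -0.17). Those lower were Hlf (-0.95), Meis1 (-0.47), Kit, the stem cell factor receptor (-0.29 ± 0.09 SE, adjusted p = 0.0193), and Flt3 (-0.29 ± 0.09 SE, adjusted p = 0.0132). The Kit call was lost with the description code as a block, on leaving out libraries with much Gm42418, and without WT replicate 5 or Dp16_2xIFNRs replicate 5 or 6 (adjusted p up to 0.150), and the Flt3 call when libraries with much Gm42418 were left out (adjusted p = 0.125).

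Cell division genes rose throughout. All 19 DNA replication genes (median 0.97) and all 20 mitosis genes (median 1.24) were called higher. Mki67, a marker of cycling cells, was at 157, 320.1 and 765 CPM in WT and at 635, 725 and 1300.3 CPM in Dp16_2xIFNRs (1.21 ± 0.32 SE, adjusted p = 0.00973). The groups overlapped through WT replicate 2, and Dp16_2xIFNRs replicate 1 was the highest. Mcm3, part of the replicative helicase, rose from 131 ± 30.5 to 232 ± 30.7 CPM without overlap (0.85 ± 0.12 SE, adjusted p = 3.92e-05), and the mitotic kinesin gene Kif20a from 40.5 ± 14.5 to 86.9 ± 15.6 CPM (1.14 ± 0.17 SE). Of 15 antioxidant genes outside the interval, 12 were called higher (median 0.54). Gpx4, which removes lipid peroxides, rose from 167 ± 20.4 to 297 ± 65.1 CPM (0.83 ± 0.11 SE), and Prdx2, the abundant peroxiredoxin of red cells, stood at 1.59. Of 13 genes of the unfolded protein response, 3 were called higher (median 0.34), among them Atf4 (0.49 ± 0.10 SE), against 1 higher and 1 lower with library totals or limma-trend on RPKM, and 2 and 1 with upper quartile scaling.

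**Figure D3:**
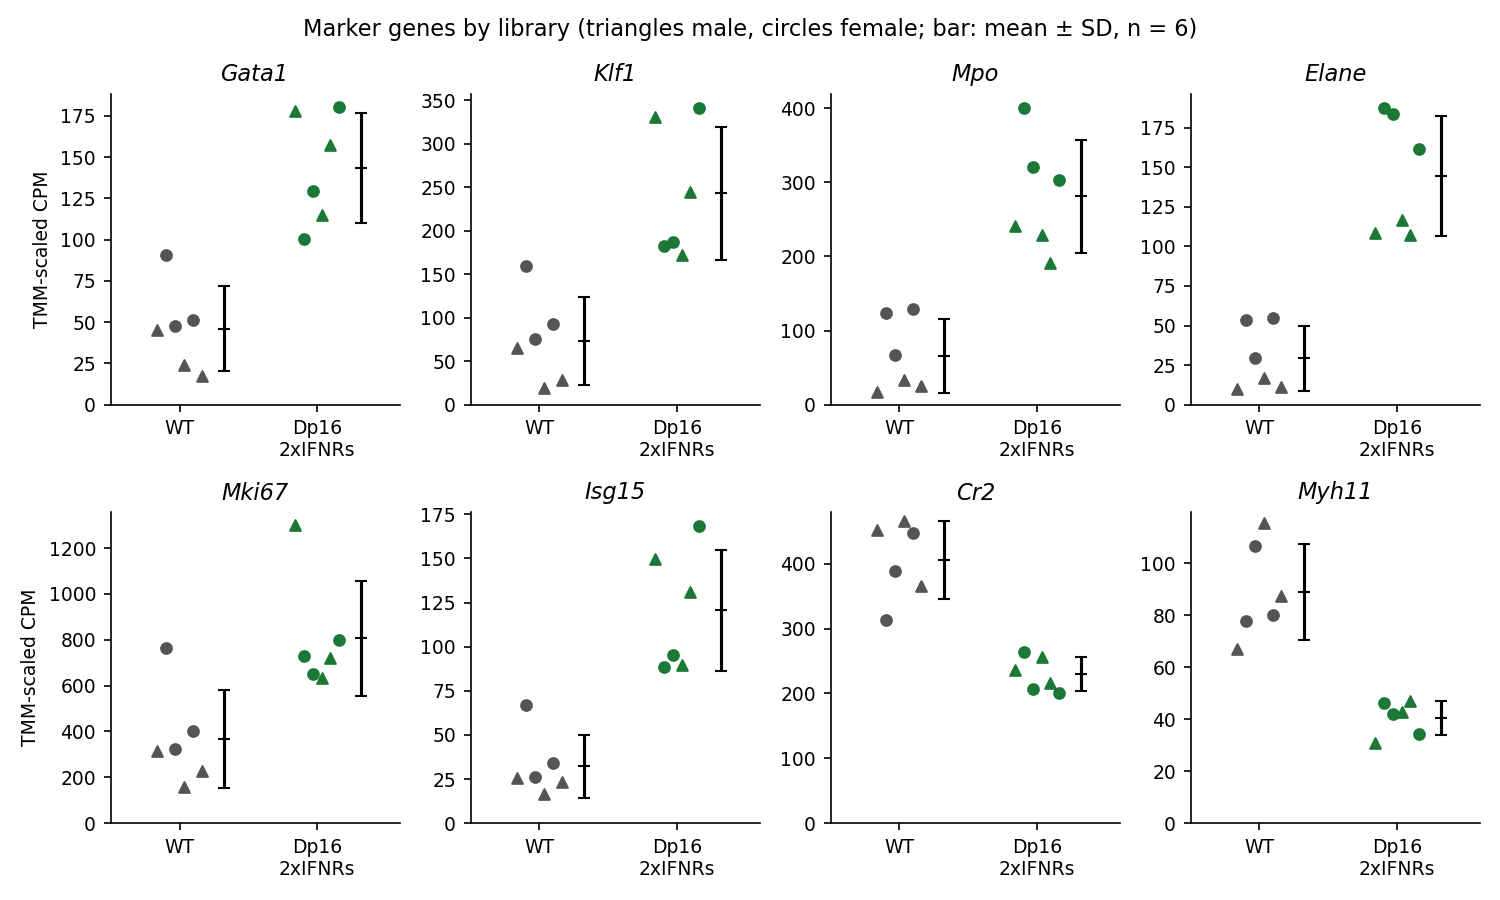
TMM-scaled CPM of 8 genes is plotted for each WT and Dp16_2xIFNRs library, with triangles for males, circles for females and a bar for the mean ± SD (n = 6). Every Dp16_2xIFNRs library lies above every WT library for Gata1, Klf1, Mpo, Elane and Isg15, and below every WT library for Cr2 and Myh11, whereas Mki67 overlaps through 1 WT library.

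B cell genes were lower. Of 22 B cell genes, 20 were called lower and 0 higher (median -0.59), and in 16 of them every Dp16_2xIFNRs library was below every WT library, against 5.75% of all genes tested. Fcmr, the receptor for IgM, was at 429, 524 and 626 CPM in WT and at 234, 287 and 331 CPM in Dp16_2xIFNRs (-0.92 ± 0.09 SE, adjusted p = 1.4e-06). Cr2, the complement receptor that marks mature B cells and follicular dendritic cells, was at 314, 418 and 467 CPM in WT and at 201, 226 and 264 CPM in Dp16_2xIFNRs (-0.82 ± 0.10 SE, adjusted p = 7.95e-06). The lineage transcription factor genes Pax5 (-0.92) and Ebf1 (-0.83) were among the largest decreases of the list, and Pou2af1 (-0.15) and Cd72 (-0.13) were not called. Of 8 marginal zone B cell genes, 6 were called lower (median -0.59), with Notch2, the receptor that this cell type requires, at -0.72 ± 0.13 SE and its target Dtx1 at -0.67 ± 0.10 SE. Of 6 tested genes of precursor B cells, 2 were called lower, Sox4 (-0.79 ± 0.12 SE) and Cd93 (-0.44 ± 0.09 SE).

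Some genes of activated B cells were higher. Of 9 germinal centre genes, 4 were called higher and 1 lower (median 0.62), with 2 higher under library totals and 3 under upper quartile scaling. Rgs13 rose from 3.42 ± 2.25 to 8.01 ± 2.30 CPM (1.29 ± 0.36 SE, adjusted p = 0.0104), a call lost when libraries with much Gm42418 were left out (adjusted p = 0.0670). Of 12 plasma cell genes, Jchain, which joins IgA and IgM into polymers, was called higher (0.73 ± 0.18 SE, adjusted p = 0.00506) and Irf4 lower (-0.44 ± 0.13 SE, adjusted p = 0.0117), with a median of 0.47. The Irf4 call was lost with the description code as a block (adjusted p = 0.155), where 3 genes of the list were higher and 0 lower. Immunoglobulin genes took 2.52% to 6.16% of counts in WT and 3.70% to 6.37% in Dp16_2xIFNRs, which overlap.

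Fewer T, natural killer and dendritic cell genes were called. Of 24 T cell genes, 4 were called lower and 0 higher (median -0.13), a share near the background. With scaling to library totals 10 were called lower, beside 3975 of all 18634 genes, and with upper quartile scaling 7, beside 3451. Cd8a, of the cytotoxic T cell coreceptor, was at 82.1, 99.5 and 129 CPM in WT and at 59.5, 67.6 and 73.7 CPM in Dp16_2xIFNRs, without overlap (-0.59 ± 0.09 SE, adjusted p = 0.000100). Cd3e, part of the T cell receptor complex, was at 178 ± 21.7 and 177 ± 38.5 CPM (-0.00 ± 0.12 SE, adjusted p = 0.997). Of 17 natural killer and cytotoxic genes, 4 were called lower, among them the transcription factor gene Eomes (-0.54 ± 0.15 SE), and of 15 dendritic cell genes 3, among them Tcf4, needed by plasmacytoid dendritic cells (-0.37 ± 0.08 SE). With the description code as a block 0 natural killer and cytotoxic genes were called lower, and Eomes had an adjusted p of 0.0559. Of 7 regulatory T cell genes, Ctla4, an inhibitory receptor, was called higher (0.61 ± 0.17 SE, adjusted p = 0.00842), and that call was lost with the same block (adjusted p = 0.0882).

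Macrophage genes were divided. Of 17 red pulp macrophage genes, 6 were called higher and 0 lower: Blvrb, which reduces biliverdin and is also abundant in red cells (1.49 ± 0.22 SE), the scavenger receptor Cd163 (0.65), Cd5l (0.58 ± 0.13 SE) and the complement genes C1qb (0.43), C1qa (0.34) and C1qc (0.34), with 4 higher under library totals. Spic, the transcription factor that red pulp macrophages require, was at 66.7, 80.8 and 97.0 CPM in WT and at 69.0, 76.5 and 92.3 CPM in Dp16_2xIFNRs (-0.05 ± 0.09 SE, adjusted p = 0.704). Siglec1, a sialic acid receptor of marginal metallophilic macrophages, was at 31.0, 40.4 and 71.3 CPM in WT and at 12.0, 22.2 and 30.4 CPM in Dp16_2xIFNRs, lower without overlap (-1.08 ± 0.24 SE, adjusted p = 0.00273). Of 13 monocyte genes, 3 were called higher: Itgam (0.85 ± 0.10 SE), Ly6c2 (0.58 ± 0.10 SE) and F13a1 (0.66). None was called lower with TMM, against 4 with library totals or limma-trend on RPKM and 3 with upper quartile scaling. Of all 18634 genes, 3975, 3958 and 3451 were lower under those settings.

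Contractile and stromal genes included the largest decreases. The 8 largest called decreases under the same conditions as above were Actg2, Cnn1, Scn4a, Olfml2a, Cacna1i, Rbms3, Myh11 and Siglec1, with log2 fold changes from -1.79 to -1.08. Myh11, smooth muscle myosin, was at 67.1, 83.6 and 116 CPM in WT and at 30.9, 42.4 and 47.0 CPM in Dp16_2xIFNRs (-1.13 ± 0.16 SE, adjusted p = 7.37e-05), and Actg2, a smooth muscle actin, fell from 16.4 ± 11.0 to 4.68 ± 1.26 CPM. The spleen capsule and trabeculae hold smooth muscle. Of 17 white pulp and stromal genes, 7 were called lower and 0 higher (median -0.36). Cxcl13, the chemokine that draws B cells into follicles, was at 120.1, 134 and 166 CPM in WT and at 62.2, 87.8 and 99.7 CPM in Dp16_2xIFNRs (-0.68 ± 0.11 SE, adjusted p = 0.000101). Of 13 endothelial genes, 8 were called lower and 0 higher (median -0.36), such as Kdr, a VEGF receptor (-0.78 ± 0.13 SE), and Pecam1 (-0.37 ± 0.07 SE). Of 16 immediate early genes, 6 were called lower (median -0.28), with Egr3 at -0.90 ± 0.13 SE. With scaling to library totals 10 were called lower, beside 3975 of all 18634 genes. Of 15 circadian clock genes, 6 were called lower (median -0.43), with Clock at -0.53 ± 0.11 SE.

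Markers of tissue that can adhere to a dissected spleen were low. Of 16 pancreatic acinar genes, 1 passed the filter and 5, Amy2a5, Amy2b, Cela3b, Clps and Prss1, had no count in any of the 12 libraries, and the summed level was 13.5 to 24.5 CPM in WT and 20.8 to 33.9 CPM in Dp16_2xIFNRs. The sum of 8 adipocyte genes was 13.0 to 110 CPM and 25.4 to 69.5 CPM, and that of 9 mesothelial and epithelial genes 27.2 to 61.7 CPM and 24.7 to 40.9 CPM. In these lists Cela1 and Fabp4 were called higher and Cidec, Krt19 and Upk1b lower, the last 3 at under 2 CPM on average. The calls of those 3 were lost under several settings and on leaving out single libraries. The part of capsule and adjoining tissue in the lower stromal values was not tested.

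**Figure D4:**
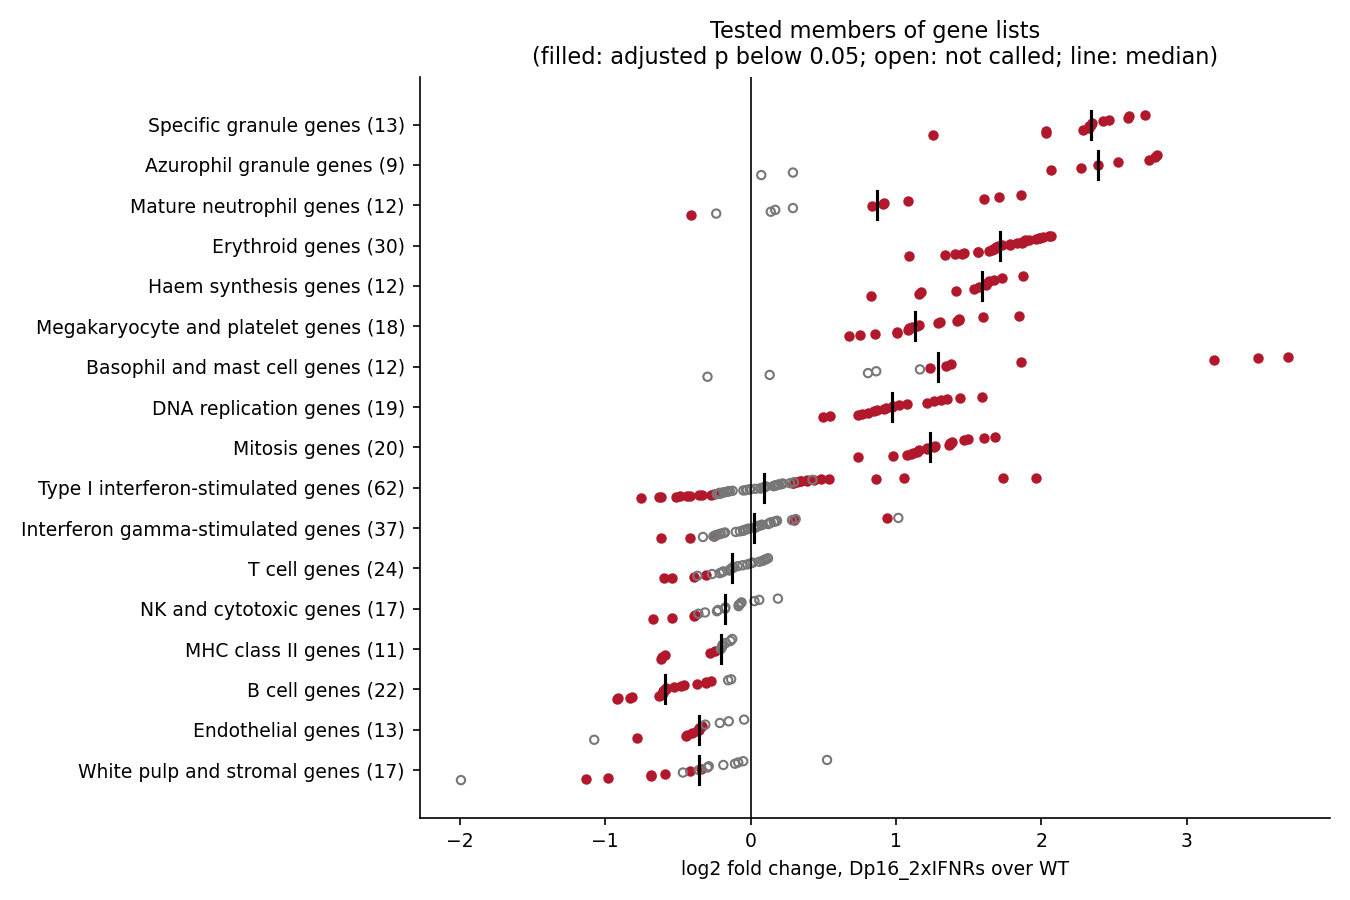
Each row shows the tested members of 1 gene list, with their number in brackets, by log2 fold change of Dp16_2xIFNRs over WT. Filled points have an adjusted p below 0.05, open points were not called, and a black line marks the median. Granule, erythroid, platelet and cell division genes lie to the right of 0, B cell, endothelial and stromal genes mostly to the left, and the interferon lists spread on both sides.

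With the receptors at 2 copies, interferon-stimulated genes were called in both directions, in a balance that depends on the scaling. Of 62 type I interferon-stimulated genes outside the interval, 15 were called higher (24.2%) and 12 lower (19.4%), beside 17.3% and 14.2% of all genes, and the median log2 fold change was 0.09 (-0.03 with scaling to library totals or limma-trend on RPKM). With either of these settings 8 were called higher and 18 lower, and with upper quartile scaling 11 and 16. The summed level of the 62 genes was 4886 to 5377 CPM in WT and 4589 to 5299 CPM in Dp16_2xIFNRs. Isg15, a ubiquitin-like antiviral protein, rose most. It was at 16.3, 25.9 and 66.8 CPM in WT and at 88.5, 113 and 169 CPM in Dp16_2xIFNRs, without overlap (1.96 ± 0.31 SE, adjusted p = 0.000282). Rsad2, which makes an antiviral nucleotide, stood at 1.74, Oas3, a sensor of double-stranded RNA, at 1.06, and Cmpk2, a mitochondrial nucleotide kinase, at 0.86, all called. Irf7, the factor that amplifies type I interferon production, rose from 78.9 ± 12.1 to 114 ± 20.4 CPM without overlap (0.54 ± 0.11 SE, adjusted p = 0.000886).

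Other members fell. Slfn8, of the Schlafen family, was at 57.8, 67.9 and 78.1 CPM in WT and at 40.4, 44.1 and 48.1 CPM in Dp16_2xIFNRs, without overlap (-0.62 ± 0.09 SE, adjusted p = 4.08e-05). Ddx58, the RNA sensor RIG-I, fell from 81.0 ± 4.11 to 52.2 ± 7.04 CPM without overlap (-0.63 ± 0.09 SE, adjusted p = 5.66e-05), and Helz2 (-0.76), Samd9l (-0.51) and Stat2 (-0.33) were also called lower. Between them stood genes with little difference. Ifit3 was at 25.9 ± 2.86 and 25.9 ± 5.09 CPM (-0.00 ± 0.13 SE, adjusted p = 0.997). Oas2 was at 10.9 ± 2.48 and 9.85 ± 3.21 CPM (-0.14 ± 0.21 SE, adjusted p = 0.670).

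**Figure D5:**
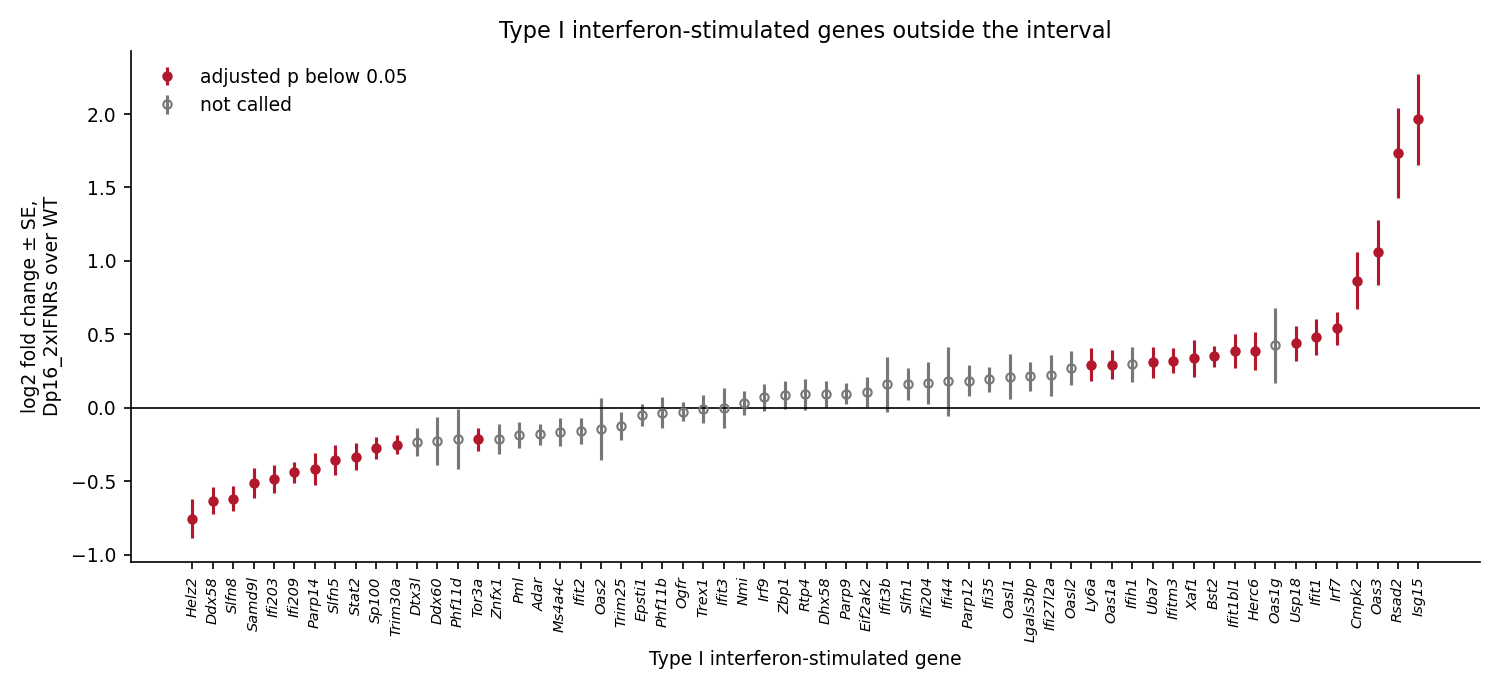
Log2 fold change ± SE of Dp16_2xIFNRs over WT is plotted for 61 of the 62 type I interferon-stimulated genes outside the interval, ordered by value, with filled points for genes at an adjusted p below 0.05. The values run from -0.76 (Helz2) to 1.96 (Isg15), with 4 genes set apart at the upper end and most within 0.5 of 0.

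Members that rose, that fell and that were not called included promoters with the ISRE core. The letters GAAA, then 2 bases of any kind, then GAAA, on either strand, are the core of the ISRE and were found in the 250 bases before the start in 2.98% of 32851 RefSeq promoters, and in 19 of 61 promoters of the type I list (31.15%; 50 of 62 genes matched). By call, they were in 8 of 14 promoters of members called higher (57.14%), in 6 of 14 of those called lower (42.86%) and in 5 of 33 of those not called (15.15%). Some genes have more than 1 promoter in the table, and the match is of letters only. The search returned no match for Irf7, which rose, for Ddx58 and Helz2, which fell, or for Mx1 of the interval. A gene with no promoter under its symbol also returns none, so this does not show that their promoters lack the letters. One match is shown per gene, 5′ to 3′ on the strand of the gene with the matching letters in capitals, for 3 genes that rose, Isg15 (chr4:156200857-156200926), Rsad2 (chr12:26456533-26456602) and Oas3 (chr5:120777695-120777764), for Slfn8, which fell (chr11:83020819-83020888), all on the minus strand, and for Ifit3, which was not called (chr19:34583343-34583412, plus strand).
Isg15: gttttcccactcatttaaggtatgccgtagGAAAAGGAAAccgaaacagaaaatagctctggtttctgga
Rsad2: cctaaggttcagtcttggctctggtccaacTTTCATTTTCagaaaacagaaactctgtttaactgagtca
Oas3: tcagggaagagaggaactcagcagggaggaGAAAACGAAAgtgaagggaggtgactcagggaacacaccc
Slfn8: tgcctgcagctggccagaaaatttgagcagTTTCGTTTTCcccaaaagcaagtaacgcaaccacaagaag
Ifit3: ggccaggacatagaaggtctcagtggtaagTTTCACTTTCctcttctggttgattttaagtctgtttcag

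Few genes of the interferon gamma response were called with TMM, and more were called lower with other scalings. Of 37 tested, 2 were called higher, Gbp2b (0.94) and Igtp (0.30), and 3 lower, Ciita (-0.62 ± 0.09 SE), Gbp9 (-0.42 ± 0.08 SE) and Irf8 (-0.25), with a median of 0.02 (-0.09 with library totals, where 13 were called lower). Gbp2, a guanylate-binding protein, was at 69.8 ± 12.9 and 72.6 ± 9.65 CPM, and the chemokine gene Cxcl10 at 22.8 ± 4.26 and 23.5 ± 2.63 CPM, neither called. With TMM both shares lie below those of all genes, whereas with library totals the 13 of 37 lower stand beside 3975 of 18634, and with upper quartile scaling 8 of 37 stand beside 3451 of 18634. Ciita, the coactivator of MHC class II genes that B cells express constantly, was at 184, 215 and 259 CPM in WT and at 110.4, 149.5 and 155 CPM in Dp16_2xIFNRs, without overlap. Of 11 MHC class II genes, 5 were called lower and 0 higher (median -0.20), and 8 and 11 with upper quartile scaling and library totals. Of 17 MHC class I genes, 2 were called higher and 1 lower (median -0.00), against 0 higher and 7 lower with library totals or limma-trend on RPKM, and 0 and 4 with upper quartile scaling. B2m, the light chain of MHC class I, was called higher (0.24 ± 0.08 SE, adjusted p = 0.0285), a call lost with library totals (adjusted p = 0.249), with limma-trend on RPKM, upper quartile scaling or no filter, on leaving out libraries with much Gm42418, and without WT replicate 1 or 4 or Dp16_2xIFNRs replicate 3, 4 or 5.

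Of 25 genes of the JAK-STAT pathway outside the interval, 11 were called lower and 2 higher, with a median of -0.21. Those lower were the receptor chains Il4ra (from 179 ± 20.8 to 121 ± 9.69 CPM, -0.56 ± 0.07 SE, adjusted p = 1.73e-05) and Il6st (-0.47 ± 0.09 SE), the kinases Jak1 (-0.41), Jak3 (-0.31), Tyk2 (-0.31) and Jak2 (-0.27), the factors Stat6 (-0.44), Stat2 (-0.33), Stat3 (-0.29) and Stat5b (-0.27), and the phosphatase Ptpn6 (-0.37). Cish, a feedback inhibitor (0.55), and Ifnlr1, the specific chain of the type III interferon receptor (0.56), were higher. Ifngr1, the partner chain of Ifngr2, was not called (-0.14). With library totals or limma-trend on RPKM 16 of the 25 were lower and 1 higher, and with upper quartile scaling 14 and 2. Of all 18634 genes, 3975, 3958 and 3451 were lower under those settings. Of 23 tested inflammatory cytokine and chemokine genes, 2 were called higher and 2 lower, the latter Csf1 (-0.67 ± 0.12 SE) and Ltb (-0.47 ± 0.10 SE).

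No gene passed the test of the difference between the effect in males and that in females (0% of 18634, edgeR). At an unadjusted p below 0.05, 615 genes had a larger value in males and 130 in females. Together these are fewer than the about 1 in 20 of 18634 genes that chance alone gives. The median over erythroid genes was 2.59 in males and 1.06 in females, with the larger value in males in 30 of 30, and 1.80 against 0.80 over mitosis genes, in 20 of 20. Over specific granule genes it was 2.93 and 1.90, in 12 of 13, and over B cell genes -0.63 and -0.52. Genes of a list vary together, so these counts are not independent. For Elane the WT males were at 9.77, 16.8 and 11.4 CPM and the WT females at 53.3, 29.7 and 54.7 CPM, and in Dp16_2xIFNRs the males were at 108, 117 and 107 CPM and the females at 188, 184 and 162 CPM. Females were above males in both genotypes.

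The Dp16 values are given beside these, with the WT controls shared by both comparisons. For Isg15 the means were 32.1 ± 18.0 CPM in WT, 121 ± 34.3 in Dp16_2xIFNRs and 136 ± 41.7 in Dp16. For Irf7 they were 78.9 ± 12.1, 114 ± 20.4 and 133 ± 23.2 CPM, for Klf1 73.4 ± 50.7, 243 ± 76.4 and 247 ± 49.7 CPM, for Elane 29.3 ± 20.4, 144 ± 37.9 and 171 ± 80.7 CPM, and for Cr2 406 ± 59.8, 230.0 ± 26.3 and 238 ± 20.1 CPM. None of these genes, and no member of the gene lists, was called between Dp16_2xIFNRs and Dp16. A value that misses the threshold does not show that the levels are equal: for Isg15 the log2 fold change over Dp16 was -0.16 ± 0.29 SE and for Irf7 -0.21 ± 0.11 SE.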

How the data were processed

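RNA of the spleens was taken up in TRIzol and made into strand-specific poly(A) libraries with a Tecan/Nugen Universal Plus mRNA kit, sequenced paired-end on an Illumina NovaSeq, per the labels' protocols. The deposited counts are the authors' whole-number read counts per gene, and the submitters' processing notes name HISAT2 2.1.0, HTSeq 0.6.1 and the build GRCm38, beside SAMtools 1.5 and FastQC 0.11.5. Whether reads were counted by strand is not given in the sources used here. The deposited RPKM values equal the authors' counts divided by the library total and 1 length per gene, to a relative deviation of at most 2.2e-15 over the 11538 genes that reached 100 counts in every library. Gene positions came from GENCODE on GRCm38, matched by identifier for 55144 of 55385 genes (99.6%).

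Genes were filtered with filterByExpr and scaled by TMM, and all 18 libraries entered 1 robust quasi-likelihood fit in edgeR 4.0.16 under R 4.3.3. Its terms were sex and genotype, and it pools the spread over the 3 genotypes. A fit with 6 groups of genotype and sex tested the sex difference. CPM values use TMM-scaled library sizes. Summed levels of lists use library totals. Scripts were tested on simulated data. Alternatives were other scalings and filters, DESeq2 1.42.0, limma 3.58.1 (voom, and trend on log2 RPKM with 0.1 added), other terms or blocks, and omission of libraries or genes.

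Members, gene lists and tests were chosen with earlier results of these data known, so lists are described by counts and medians beside those of all genes. Interval genes were left out of the lists. Named genes are the 4 receptors, a set of anchor genes, the 8 largest called changes in each direction, the 5 largest and 5 smallest interval changes (protein-coding, mean log2 CPM above 3) and the 2 members of each list with the smallest p. Genes named beyond this rule, promoters among them, were chosen after their values were seen. Some genes that the rule picks are not reported here.

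Nothing says that libraries of a genotype came from separate litters or days, so p-values measure the spread between these samples. Within a genotype, the 30 pairs of libraries all differed by more than sampling noise (chi-square 37.6 to 202 for each degree of freedom), so each was counted once. A count of 0 allows up to 3 counts in a library, for counting error only.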

Additional observations from a re-analysis of the deposited data

Results flagged for a closer look

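In groups of 6 libraries, 90 sets of values were checked for a library far from the other 5, by the ratio of its gap to the range (Dixon's test), and 7 stood out, where chance gives about 1 in 20. In WT, replicate 2 had Isg15 at 66.834 CPM against 16.261 to 34.326 in the others, and Alas2 at 628.28 CPM against 158.25 to 331.89. WT replicate 1 had the B cell gene Ms4a1 at 440.9 CPM against 349.69 to 378.17. Dp16_2xIFNRs replicate 2 had 5.3021e+07 total counts against 4.0608e+07 to 4.43e+07. Dp16_2xIFNRs replicate 6 had Irf7 at 151.84 CPM against 95.674 to 116.2. Dp16_2xIFNRs replicate 1 had Mki67 at 1300.3 CPM against 635.12 to 799.27, and replicate 3 had the natural killer gene Ncr1 at 3.0671 CPM against 5.9089 to 6.9482. Of the called genes among these, Isg15, Alas2, Ms4a1, Irf7 and Mki67 kept their call without the library concerned.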

How the results depend on the processing

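Of 104 named genes called, 91 kept their call and direction in all 16 alternatives and without any 1 of 12 libraries, 13 lost the call under at least 1, and 0 reversed. DESeq2 called 3304 higher and 2963 lower, and limma voom 3450 and 3058. Where a value below moved, the cause was not tested. With upper quartile scaling the interval median was 0.482129, Ifnar1 over WT -0.229695 (called), Gbp2 -0.00532661, Cxcl10 -0.0133256 and Prdm15 -0.0539552, and 8 MHC class II genes were lower. With library totals 3975 genes were lower, the interval median was 0.436558, Ifnar1 over WT -0.279321 and Il10rb -0.192389 (both called), Ifnar2 -0.0257097 and Ifnar1 over Dp16 -0.461112 (not called). There 8 type I interferon-stimulated genes were higher, 11 MHC class II and 10 immediate early genes lower, and Gbp2 was -0.0607914, Cxcl10 -0.0687492 and Prdm15 -0.104495. Limma-trend on RPKM gave an interval median of 0.404316, Ifnar1 over WT -0.283145 and Il10rb -0.191075 (both called), Ifnar2 -0.0252236 and Ifnar1 over Dp16 -0.462492 (not called), the same 3 list counts of 8, 11 and 10, Gbp2 -0.0490488, Cxcl10 -0.0597258 and Prdm15 -0.109986. TMM without interval genes gave Ifit3 0.00163846 and Cd3e 0.00151849. Without a filter the interval median was 0.419294 and Prdm15 -0.0183566, and with a filter at 1 CPM in 6 libraries it was 0.493859, with Ifit3 0.00426808 and Cd3e 0.00438645. Without the sex term Ifnar1 over Dp16 was -0.468142 (not called) and Ifit3 0.000371757.

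With the description code as a block 0 genes were called against Dp16, where Ifnar2 was -0.513059, Il10rb -0.517403, Ifnar1 -0.425419 and Ifngr2 -0.567325, Ifngr2 over WT was -0.204663 (not called), 2 eosinophil genes were higher, and Csf3r was -0.0275677, Cd3e 0.0183794, Spic 0.0827601 and Prdm15 -0.099945. A library order term gave Ifnar1 over WT -0.186565 (called), Ifit3 0.0140416 and Cd3e 0.00121105, the 12 libraries alone Ifit3 0.0141092 and Cd3e 0.00834488, omission of immunoglobulin and haemoglobin genes Prdm15 -0.00998332, and voom Cd3e 0.0628476 and Prdm15 -0.0367972. On leaving out libraries with much Gm42418, 1734 genes were lower, Ifnar1 over Dp16 was -0.435663 (not called), Ifit3 0.0176422, Gbp2 -0.0207816, Cxcl10 -0.03316 and Cd3e 0.0452523.

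Leaving out 1 library at a time gave 2799 to 3323 genes higher and 2139 to 2792 lower. Ifnar1 ran from -0.216982 to -0.138684 over WT and from -0.510682 to -0.434573 over Dp16. Genes that were not called and changed sign ran from -0.120739 to 0.0797113 for Cd3e, -0.0288203 to 0.110875 for Cxcl10, -0.0999635 to 0.0487511 for Ets2, -0.0125497 to 0.142864 for Gbp2, -0.0863544 to 0.0619553 for Ifit3, -0.0941951 to 0.0804738 for Prdm15 and -0.205321 to 0.0677547 for Slc5a3. Same-numbered libraries of WT and Dp16_2xIFNRs correlated from -0.168 to 0.232 in their deviations, and 1 of 6 WT libraries correlated best with its own number. These values gave no sign of a pairing by number, but so few pairs cannot exclude it. WT replicate 3 and Dp16_2xIFNRs replicate 3 share a description code, as do replicate 4 of each. The replicate block gave 3090 genes higher and 2706 lower.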

Other observations

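Gene a (nonagouti, chromosome 2, 154791402 to 155051012) makes a signal for pigment cells, and was chosen after its values were seen, like the next gene. It was at 0.352 ± 0.219 CPM in WT and 8.89 ± 3.12 CPM in Dp16_2xIFNRs (SD, n = 6), without overlap (log2 fold change 4.65 ± 0.36 SE). Lin28a, a regulator of let-7 microRNA, was at 0.913 ± 0.418 and 3.96 ± 1.15 CPM (log2 fold change 2.17 ± 0.18 SE). In Dp16, gene a was at 8.11 ± 2.05 CPM and Lin28a at 5.09 ± 1.53 CPM. The labels name a strain for WT only, so strain background and the interval cannot be told apart in these values.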
